A study of Acrobeloides nanus with 194 samples.

Results

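Descendants of AB, the anterior daughter of the zygote, were compared with all other cells of the 13-cell embryo of Acrobeloides nanus, a soil nematode whose females reproduce without males. The members were the libraries whose titles name AB at the 13-cell stage, and the comparison took in every other library titled with that stage. The stage supplied 20 libraries, 10.3% of those in the series, 4 of AB and 16 of other cells. A library entered when its total reached 10000 counts, which left 3 AB libraries and 10 libraries of other cells under 8 names, MS and C with 2 libraries each and E, P4, P4d, D4, E+P4 and CDP4 with 1 each. The animals carried no stated treatment or mutation. Eggshells had been taken off, and the blastomeres had been separated by hand and frozen. The RNA of single blastomeres or small groups of cells had been read with CEL-Seq2. That method barcodes each sample and counts the 3′ ends of its transcripts.

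The nematode zygote cleaves into an anterior cell, AB, and a posterior cell, P1. From P1 come EMS, the mother of MS and E, and a P cell that later gives C, D and the germline precursor P4. In Caenorhabditis elegans, AB descendants form much of the epidermis and the nervous system and part of the pharynx, MS gives mesoderm and part of the pharynx, E gives the gut, and C and D give mostly muscle and epidermis. In A. nanus early blastomeres are known to be regulative, so that the fate of a lost cell can be taken over by a neighbour.

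Several limits come with the samples. The titles of the AB libraries read AB, AB2, AB3 and AB4, and no source used here says whether the number counts cells or samples, so fewer cells and less RNA per cell cannot be told apart. The titles CDP4, E+P4 and P4d join the names of cells, and D4 was not explained. No label names the embryo of a library, so p-values measure the spread between libraries. Rows of the count table carry no identifiers, so a row is named by its position, no gene can be named, and the labels AB, MS, E or C could not be checked against marker genes.

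No row separated AB from the other cells. Of 364 rows tested with edgeR, 0 were called at an adjusted p under 0.05, which is 0% of the rows, and the smallest adjusted p in edgeR was 0.208. At an unadjusted p under 0.05 edgeR gave 23 rows, 7 higher and 16 lower in AB. With a term for the 2 sets of libraries that carry neighbouring sample numbers, edgeR again called 0 of the 364 rows (smallest adjusted p = 0.0948). That fit gave 28.85% at an unadjusted p under 0.05, 28.02% of the rows higher and 3 rows lower in AB, so the balance of higher and lower rows turned with this term. Without the term, DESeq2 called 3 of the 364 rows (0.824%), all 3 lower in AB. In 0 rows did all 3 AB libraries lie above every other library, and in 0 rows did all 3 lie below. The median log2 fold change of AB over the other cells was 0.27, with 220 rows higher in AB, and the median size of a fold, 1.08 on the log2 scale, was below its median standard error of 1.2.

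The AB libraries were deeper than most others. AB replicates 1, 2 and 3 held 172262, 250766 and 103039 counts, a mean of 175356 ± 73912 (SD, n = 3). The other libraries ran from 10941 in MS replicate 2 to 106547 in CDP4, with a median of 22401.5 and a mean of 36954 ± 34738 (SD, n = 10). Among the other libraries, CDP4 and MS replicate 1 (96675 counts) had totals close to that of AB replicate 3, and the remaining 8 held at most 34450. The mean log10 total was higher in AB by 0.779 (two-sided exact permutation test over 286 regroupings, p = 0.00699, adjusted p = 0.0157 over 3 tests). Without AB replicate 1 or without AB replicate 2 the adjusted p of that exact test was 0.0682, with a smallest possible unadjusted p of 0.0152.

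**Figure D1:**
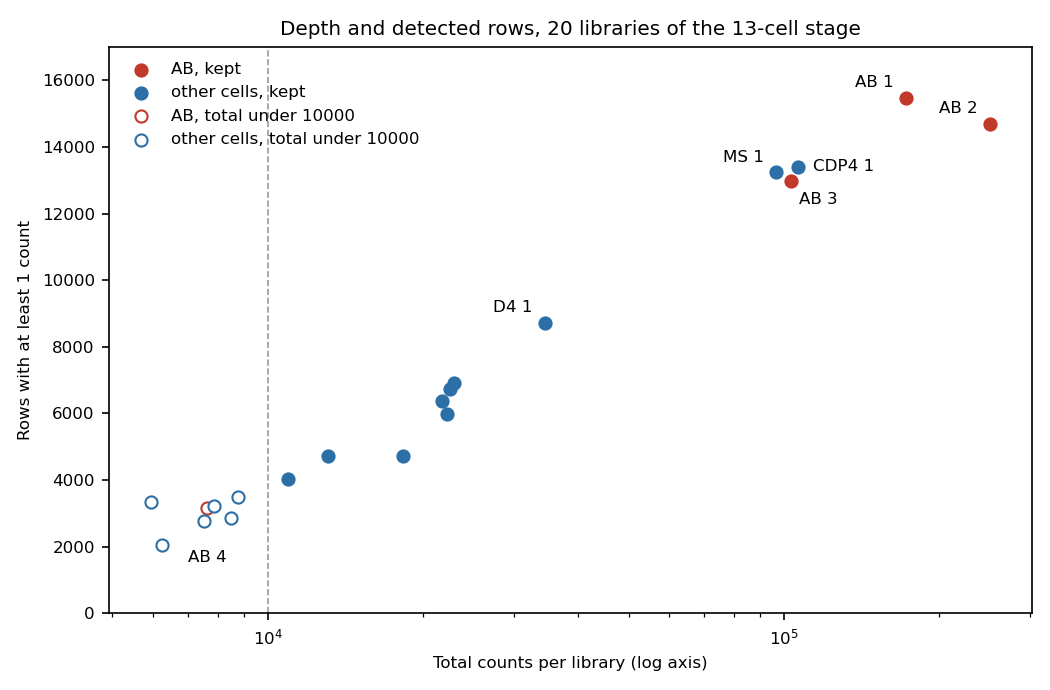
Each point is 1 library of the 13-cell stage. The x axis gives total counts on a log scale, the y axis gives rows with at least 1 count, red is AB, blue is other cells and open points lie under the dashed minimum of 10000 counts. AB 3 lies beside MS 1 and CDP4 1, with 12980 to 13393 rows, and AB 4 lies among the shallow libraries.

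More rows were detected in AB, and most of that difference was not seen at equal depth. AB libraries held 15476, 14697 and 12980 rows with at least 1 count, against 4030 to 13393 in the other cells with a median of 6554. The means were 14384 ± 1277 (SD, n = 3) and 7484 ± 3352 (SD, n = 10), a difference of 6901 rows (two-sided exact permutation p = 0.0105, adjusted p = 0.0157). After each library was thinned to 10000 counts, the AB libraries held 5333, 3978 and 4380 rows and the others 3098 to 4590, so the ranges overlapped. The means were then 4564 ± 696 and 3972 ± 441 (SD), a difference of 592 rows (two-sided exact permutation p = 0.122, adjusted p = 0.245 over 2 tests). A row listed at 0 can still hold up to 3 counts by counting error alone, which is 11.96 CPM (counts scaled to a library total of 1000000) in AB replicate 2 and 274 CPM in MS replicate 2.

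AB libraries were not shown to be more like each other than like the other cells. Over 366 rows, the Spearman correlations between AB libraries were 0.581 for replicates 1 and 2, 0.665 for replicates 1 and 3 and 0.382 for replicates 2 and 3. Their mean of 0.543 was above the mean of 0.21 between AB and other libraries, and the difference of 0.333 had p = 0.164 in a one-sided exact permutation test (adjusted p = 0.164). AB replicate 2 correlated with MS replicate 1 at 0.73 and with CDP4 at 0.656, more than with either AB replicate. Without MS replicate 1 the difference was 0.42 and without CDP4 it was 0.418, each with p = 0.0182 in the exact permutation test, so a single library of another cell sets which side of the threshold this result falls on.

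Depth, more than cell name, went with the order of these correlations. MS replicate 1 and CDP4, both deep, correlated at 0.867, whereas MS replicate 1 and MS replicate 2, which carry 1 cell name and differ in depth, correlated at -0.165. CDP4 correlated with the 8 shallower libraries at -0.35 to -0.114. The 366 rows were those at about 435 CPM or more in at least 3 of the 13 libraries. Rows high only in deep or only in shallow libraries could thus enter, which can lower correlations between the 2 kinds. The part of this choice in the negative values was not tested. The same split appeared in the first principal component, computed from 861 rows over the libraries of all stages with 10000 counts or more, which held 25.04% of the variance. AB replicates 1, 2 and 3 scored 11.95, 10.32 and 20.7 on it, MS replicate 1 scored 23.97 and CDP4 scored 32.08. The 8 shallower libraries scored from -26.26 to -18.57. The part of depth in the comparison of AB with the 8 shallow libraries cannot be told apart from the part of cell identity, because no AB library with 10000 counts or more is shallow.

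**Figure D2:**
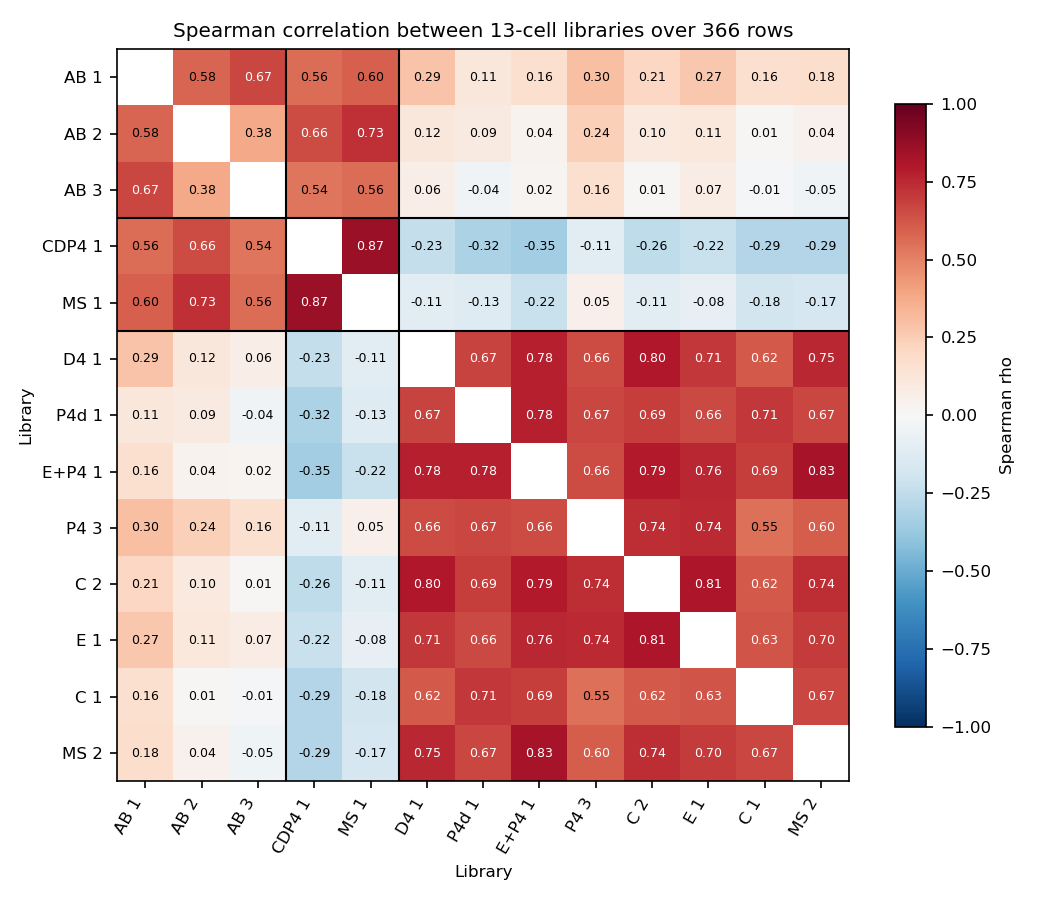
Spearman correlation between each pair of the 13 libraries over 366 rows, with AB first and the others in order of depth. Colour runs from blue (-1) to red (1), the diagonal is left blank, and lines divide AB, the 2 other deep libraries and the 8 shallower ones. AB libraries correlate with MS 1 and CDP4 1 at 0.536 to 0.73, within or above the range among themselves, and with the 8 shallower libraries at -0.046 to 0.304.

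The 5 deep libraries shared transcripts that were nearly missing from the others. A set of 91 rows reached 100 CPM in each of the 5 deep libraries and summed to at most 3 counts over the 8 shallower ones, which together held 166313 counts. At 100 CPM a row would give 16.6 counts there, and 520 rows met the first condition alone. These rows were picked from these levels, so no test was made. They held 2.96%, 3.09% and 5.44% of the counts of AB replicates 1, 2 and 3, 6.44% of MS replicate 1 and 8.01% of CDP4, against 0.0382% to 0.193% of the 8 others. The highest shares were thus in MS replicate 1 and CDP4, not in AB.

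Row 16097, one of the 91, stood at 830.1, 570.3 and 1747 CPM in AB, at 1634 CPM in MS replicate 1 and at 1718 CPM in CDP4, and had 0 counts in each of the 8 others. Row 11492 stood at 644, 901 and 1068 CPM in AB, at 1831 and 2590.4 CPM in MS replicate 1 and CDP4, and also had 0 counts in each of the 8. Both rows were named after their values were seen, and in both the AB levels overlapped those of the other deep libraries or lay below them. In AB replicate 4, left out for its total of 7636 counts, the 91 rows held 0.34% (26 counts), within the 0.0891% to 0.846% of the 5 libraries numbered beside it. At other stages the split by depth was uneven. Libraries of 90000 counts or more were compared with those under 35000 at the 12 stages with both kinds. The median share was higher in the deeper kind at 9 stages and lower at the 4-cell, 6-cell and Comma stages. Among the 9, the 1-cell, 2-cell, 5-cell, E2 and LE stages had a single library in at least 1 kind. At the 3-cell stage the median share was 4.38% in 10 libraries of 90000 counts or more and 0.23% in 3 libraries under 35000, while at the 4-cell stage it was 2.66% in 3 and 2.77% in 7. At the 6-cell stage it was 1.22% in 1 library and 3.31% in 1, and at Comma 1.23% in 3 and 4.26% in 1.

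**Figure D3:**
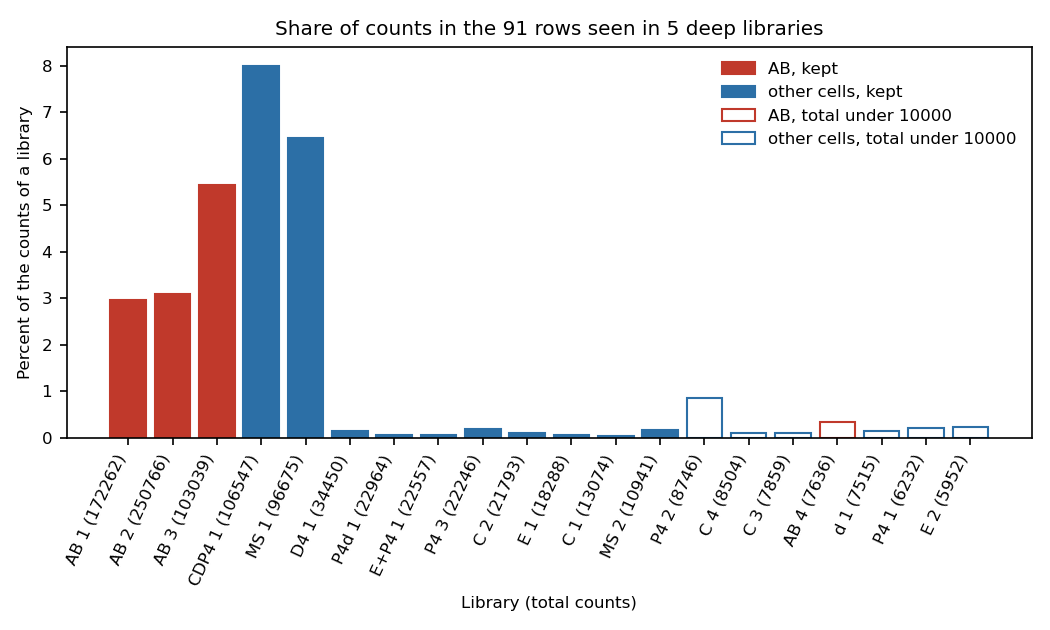
Bars give the percent of each library's counts that fell in the 91 rows, for all 20 libraries of the 13-cell stage, with total counts in brackets, AB in red and other cells in blue. Open bars are libraries under 10000 counts. The 5 deep libraries lie between 2.96% and 8.01%, and every other library lies under 0.85%, with P4 2 the highest of them at 0.846%.

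The 12 rows higher in AB with the smallest p were each carried by 1 AB library or overlapped the other cells. Their log2 fold changes ran from 1.27 to 3.01 and their adjusted p in edgeR from 0.334 to 0.735, so none passed the threshold. Row 911 stood at 511, 155.5 and 3261 CPM in AB replicates 1, 2 and 3, against 76.5 to 559 CPM in the other cells with a median of 179.1. Only AB replicate 3 lay above the others, and AB replicate 2 lay below their median. The fold was 2.73 ± 0.76 (SE) on the log2 scale (edgeR adjusted p = 0.334).

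Row 3740 had the steepest fold of the 12, 3.01 ± 1.18 (SE) on the log2 scale (edgeR adjusted p = 0.733). It stood at 534, 427 and 4455 CPM in AB against 0 to 1283 CPM in the others, whose median was 111.02. AB replicate 3 was again the high one, MS replicate 1 lay above both other AB libraries, and the other 9 libraries lay at most at 315 CPM, below all 3 AB libraries.

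Rows 1346, 12775 and 11834 followed the same order. Row 1346 stood at 539.9, 403 and 3465 CPM in AB, against 43.6 to 1032 CPM in the others, CDP4 the highest. Row 12775 stood at 447, 175.5 and 2057 CPM in AB, against 0 to 591 CPM. Row 11834 stood at 406, 255 and 2387 CPM in AB, against 0 to 662 CPM. In each of these 3 rows AB replicate 3 was above all other libraries, while AB replicates 1 and 2 lay below CDP4.

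Row 1374 came nearer to a difference shared by the AB libraries. It stood at 749, 1268 and 2970 CPM in AB (mean 1662 ± 1162, SD, n = 3) against 58.1 to 1676 CPM in the others (mean 385 ± 508, SD, n = 10). MS replicate 1 (1676) and CDP4 (845) lay among the AB values and 8 of the 10 others lay below every AB library. The fold was 2.19 ± 0.92 (SE, edgeR adjusted p = 0.733).

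AB replicate 2 carried a different pair of rows. Row 10959 stood at 238, 1775 and 214 CPM in AB against 0 to 539 CPM in the others. Row 1069 stood at 359.9, 2169 and 106.8 CPM in AB against 93.9 to 688 CPM in the others, and its fold of 1.79 turned to -0.31 without AB replicate 2. Both rows overlapped the other cells in AB replicates 1 and 3.

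The last 4 of the 12 had smaller folds, from 1.27 to 1.61. Row 7507 stood at 1347, 849 and 465.8 CPM in AB against 89.9 to 1107 CPM in the others, 9 of which lay below every AB library. Row 6396 stood at 662, 869 and 291 CPM against 145.1 to 569 CPM. Row 14005 stood at 221, 1212 and 718 CPM against 44.95 to 601 CPM. In all 3 rows at least 1 AB library lay inside the range of the other cells.

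Row 16124 was the row of the 12 with a high value in an AB library outside the fit. In the fit it stood at 569, 738 and 4290 CPM in AB against 43.6 to 1552 CPM in the others (fold 1.61 ± 0.78, SE, edgeR adjusted p = 0.735). In AB replicate 4 it had 74 of 7636 counts, or 9691 CPM (95% Clopper-Pearson interval 7617 to 12151 CPM, counting error only). The 5 libraries numbered beside AB replicate 4 had 1 to 8 counts of this row, 114.3 to 1344 CPM, and the highest of their intervals reached 2647 CPM. Thus it was the highest of its numbered set in AB replicates 3 and 4, whereas AB replicates 1 and 2 lay on either side of CDP4 (723 CPM) and below MS replicate 1 (786 CPM). The row was picked from the 12 for its value in AB replicate 4. That one row made up 74 of the 90 counts of the 12 rows in that library.

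**Figure D4:**
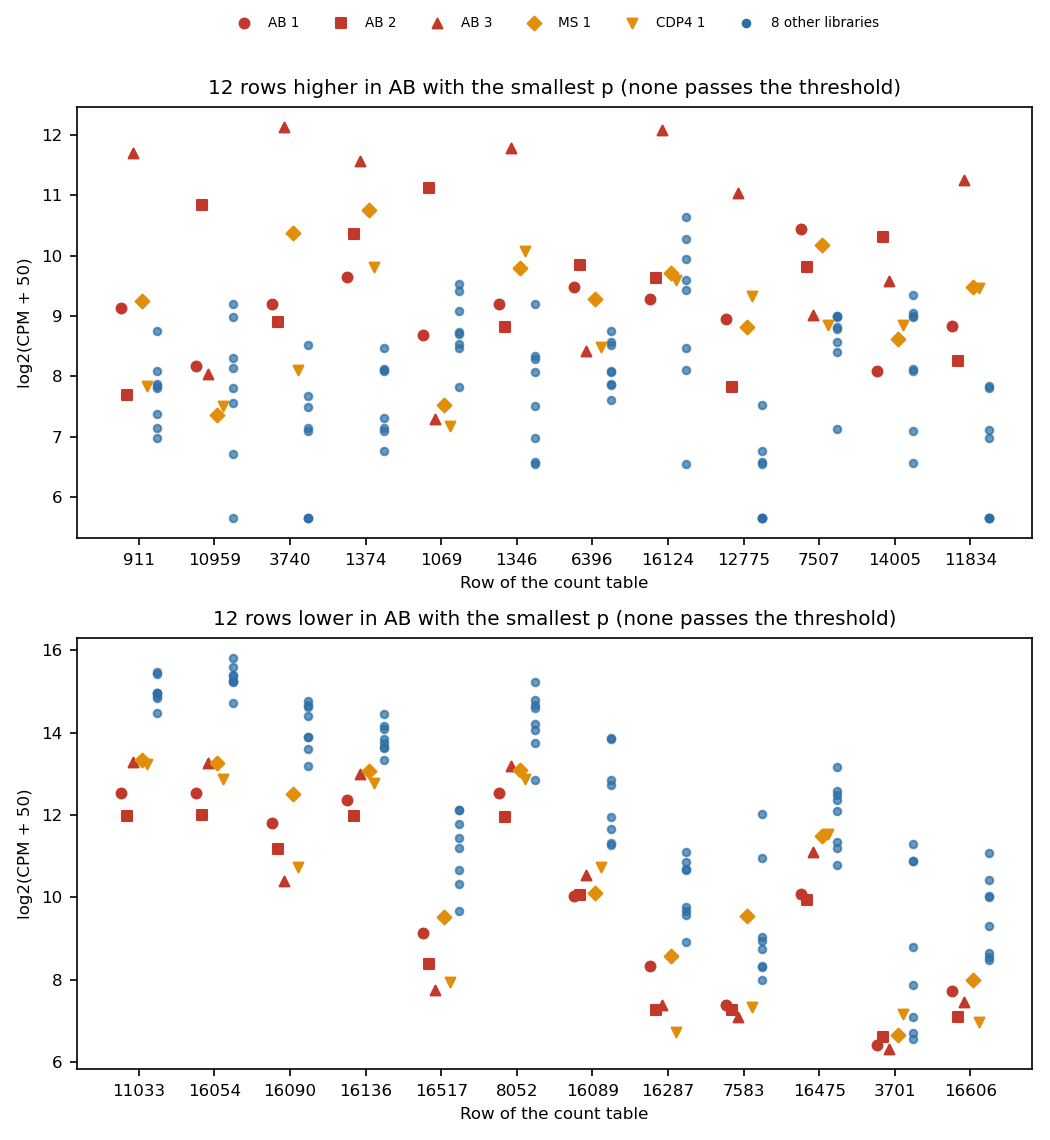
Levels of the 12 higher (top) and 12 lower (bottom) rows as log2(CPM + 50). Red symbols are the 3 AB libraries, orange symbols are MS 1 and CDP4 1, and blue points are the 8 shallower libraries. In the top panel AB 3 or AB 2 stands alone in most rows. In the bottom panel, whose rows were picked for low AB levels, AB lies below every blue point in 9 of the 12 rows, CDP4 1 in 9 and MS 1 in 8.

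Most of the 12 rows lower in AB were also lower in the other deep libraries than in the 8 shallower ones. All 3 AB libraries lay below each of those 8 in 9 of the 12 rows, CDP4 did so in 9 and MS replicate 1 in 8. MS replicate 1 lay above every AB library in 10 of the 12 rows and CDP4 in 3. Their log2 fold changes ran from -3.7 to -0.94 and their adjusted p in edgeR from 0.208 to 0.733, so none passed the threshold. Together they held 2.96%, 2.08% and 4.25% of the counts of AB replicates 1, 2 and 3. The share was 4.88% in MS replicate 1, 3.82% in CDP4 and 11.3% to 19.5% in the 8 shallower libraries. AB replicate 4, which is shallow, stood at 13.9%, within the 9.58% to 21.8% of the 5 libraries numbered beside it.

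Row 11033 had the smallest p, with a fold of -1.8 ± 0.43 (SE, edgeR adjusted p = 0.208), and was 1 of the 3 rows called by DESeq2 with rows 16054 and 16090. It stood at 5927, 3992 and 9909 CPM in AB, at 10251 CPM in MS replicate 1, at 9564 CPM in CDP4 and at 22612 to 45658 CPM in the 8 shallower libraries. In counts it read 1021, 1001 and 1021 in AB, 991 in MS replicate 1 and 1019 in CDP4. The highest value anywhere in the table was 1024, reached 22 times, as many as there are different runs of 5 bases, and no source used here gives the length of a molecular identifier. Dividing a count near such a limit by a larger total gives a lower CPM, and whether a limit was in force was not tested. Of the 12 lower rows 5 reached 512 counts, against 1 of the 12 higher rows and 30 of all 364 rows tested. Over the whole table, tested or not, 78 rows reached 512 counts. Without these 78 rows, and with the filter applied anew, edgeR called 0 of 338 rows (16 at an unadjusted p under 0.05).

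Row 16054 stood at 5910, 4052 and 9763 CPM in AB against 7518 to 57856 CPM in the others (fold -2.1 ± 0.52, SE, edgeR adjusted p = 0.208). In counts it read 1018, 1016 and 1006 in AB, 946 in MS replicate 1 and 801 in CDP4, so its AB counts also lay near 1024. Row 16090 stood at 3530, 2265 and 1291 CPM in AB against 1661 to 27669 CPM in the others (fold -2.38 ± 0.69, SE, edgeR adjusted p = 0.334). Both were lower in all 3 AB libraries than in the 8 shallower ones, and in both CDP4 lay among the AB values.

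Lower rows with fewer counts were less uniform in the other deep libraries. Row 16517 stood at 517, 283 and 164.99 CPM in AB, at 683 and 197 CPM in MS replicate 1 and CDP4, and at 765 CPM or more in the 8 shallower libraries. Row 3701 had the steepest fall, -3.7 ± 1.57 (SE), to 34.8, 47.9 and 29.1 CPM in AB. The median in the other cells was 138.7 CPM, with 3 of them at 1828 CPM or more. Against MS replicate 1 and CDP4 alone, on the same 364 rows, its fold was -0.35. The AB levels of row 3701 lie below the 87.1 to 274 CPM that 3 counts make in the 8 shallower libraries, so low values there are within counting error. Row 7583 stood at 116.1, 103.7 and 87.35 CPM in AB against 112.6 CPM in CDP4, 693 CPM in MS replicate 1 and 203 to 4130.3 CPM in the 8 shallower libraries. For each of these 3 rows 9 of the 10 other libraries lay above every AB library, and the remaining one lay inside the AB range.

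Against single cell names no row was called in edgeR. For AB against MS (3 libraries against 2) edgeR called 0 of 1171 rows (0%), with 9.31% at an unadjusted p under 0.05, and DESeq2 called 0. For AB against C (3 against 2) edgeR called 0 of 1171 rows (0%), with 270 at an unadjusted p under 0.05, and DESeq2 called 15, of which 9 were higher in AB. The median log2 fold change was 0.28 against MS, whose libraries lie on both sides of the depth split, and 1.48 against C, whose libraries are both shallow. With all 20 libraries, where C has 4 and AB has 4, edgeR called 256 of 1379 rows against C, 219 of them higher in AB. The 4 C libraries hold 7859 to 21793 counts and 3 of the 4 AB libraries hold 103039 or more, so AB cannot be told apart from depth there. Against the other deep libraries alone, MS replicate 1 and CDP4, edgeR called 0 of 2024 rows (0%), with 8.0% at an unadjusted p under 0.05, 95 higher and 67 lower in AB.

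The fold of AB had opposite signs in most rows in the 2 sets of libraries that sit together in the sample numbers, with 1 AB library in the second set. AB replicates 1 and 2, MS replicate 1 and CDP4 carry neighbouring sample numbers, and so do AB replicate 3 and the 8 shallower libraries. No label calls either set a batch. Over the same 364 rows, the fold of AB in one set and in the other correlated across rows at Pearson r -0.565 and Spearman rho -0.582, a description, since rows are not independent replicates. The sets share no library. The sign was shared by 83 rows (22.8%), while 41.5% were higher in AB in the first set and lower in the second and 35.7% were the reverse. With each set filtered on its own, r was -0.473 over 601 rows, with 34.4% of signs shared.

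In the first set, with AB and other cells all deep, edgeR called 3 of the 364 rows (0.824%), all higher in AB. Row 14650 stood at 755 and 1392 CPM in AB against 186.2 and 131.4 CPM (fold 3.54, edgeR adjusted p = 0.0397). Row 4112 stood at 755 and 829.5 CPM against 217 and 197 CPM (fold 2.69, the same adjusted p). Row 14954 stood at 1393 and 646 CPM against 196.5 and 197 CPM (fold 3.08, the same adjusted p). In these 3 rows both AB libraries lay above both others. In the second set the folds of the 3 rows were -2.53, -3.33 and 1.25, none called. When the first set was filtered on its own, edgeR called 0 of 2942 rows, with 349 at an unadjusted p under 0.05, of which 277 were higher in AB.

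In the second set AB replicate 3 stood alone against 8 shallow libraries. Its spread is unknown and was taken in edgeR to be like that of the other 8, which also differ from it in depth. These calls compare that library with the 8, and AB cannot be told apart from depth here. There 35.4% of the 364 rows were called, 33.8% higher and 6 rows lower in AB replicate 3. The rows called higher had a median level of 1068 CPM in AB replicate 3 and of 0 to 44.95 CPM in the 8 shallow libraries. In the deep libraries of the first set their median was 493.4 and 451 CPM in AB replicates 1 and 2, 972 CPM in MS replicate 1 and 1192 CPM in CDP4. CDP4 was at or above AB replicate 3 in 65.04% of these rows and MS replicate 1 in 38.2%. In the first set 91.9% of them were lower in AB than in MS replicate 1 and CDP4, and 6 of them were among the 12 higher rows named above.

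**Figure D5:**
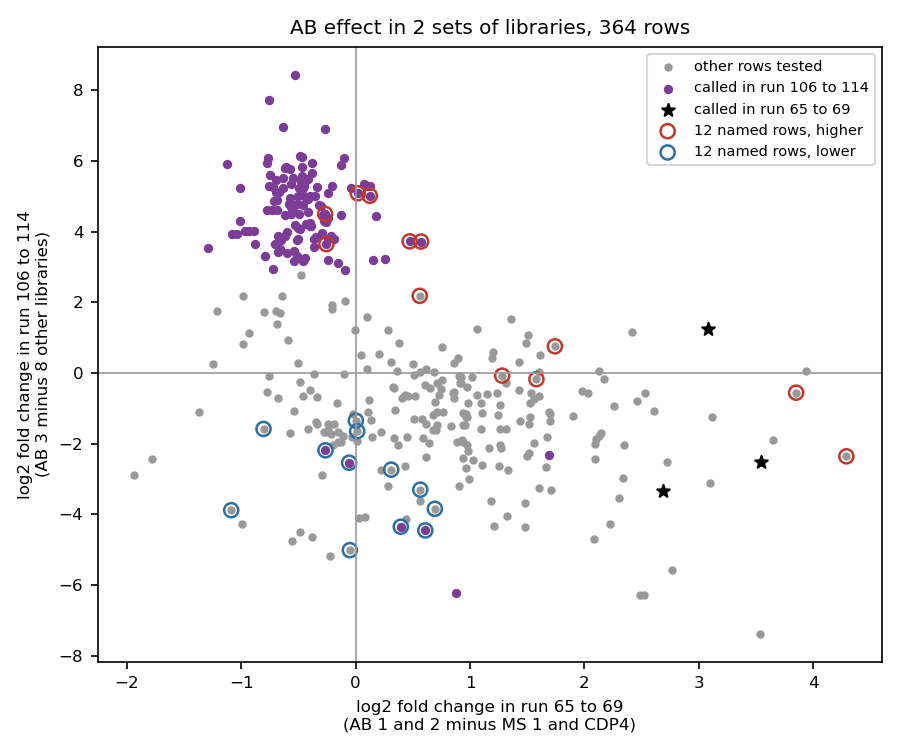
Each point is 1 of the 364 rows. The x axis is the log2 fold change of AB 1 and 2 over MS 1 and CDP4 1, and the y axis is that of AB 3 over the 8 shallower libraries. Purple points were called on the y axis and black stars on the x axis, and rings mark the 12 higher (red) and 12 lower (blue) rows. Most purple points lie to the left of zero on the x axis, and r is -0.565.

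A fit with the AB effect free in each set rests on 1 AB library in the second set, whose own spread is unknown. In it edgeR called 14.4% of 1171 rows for the difference, all of them with a lower AB effect in the first set. Of the 12 higher rows 6 were called for it, with differences from -7.17 to -5.06 on the log2 scale, and of the 12 lower rows 0 were called. These 6 rows had been high in that library, AB replicate 3, so their calls are no independent result. By the sign of the edgeR fold within each set, 10 of the 12 higher rows were higher in AB in the first set. It was 8 in the second and 6 in both. In the first set some folds lay within their SE, such as 0.02 ± 0.63 (row 12775) and 0.12 ± 0.74 (row 3740). These folds are scaled by TMM, and CPM by the library total. In mean CPM, rows 911, 3740, 1374, 16124 and 12775 were lower in AB replicates 1 and 2 than in MS replicate 1 and CDP4. The rest of the 10 were higher. By the same folds, 5 of the 12 lower rows were lower in AB in the first set, 12 in the second and 5 in both. Rows 16136, 8052 and 16089 were not counted as lower in the first set. In CPM both AB libraries of that set lay below MS replicate 1 and CDP4 in these 3 rows. Of all 364 rows, 40 were higher in AB in both sets and 43 were lower in both. The named rows were picked by p from these same libraries, so their signs here are no independent result.

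Other ways to set up the comparison gave more calls. With no filter on low counts edgeR called 546 of 16668 rows (3.28%), 542 of them higher in AB. Of the 542 rows, 391 were highest in AB replicate 2 and 33.03% had over 90% of their summed AB level in 1 library. Of the 546 rows, 1 had been among the 364 rows. Their median level was 40.6, 171.5 and 29.1 CPM in AB replicates 1, 2 and 3, 20.7 and 18.8 CPM in MS replicate 1 and CDP4 and 0 in each shallow library, and 33.9% of the 542 were higher in all 3 AB libraries than in MS replicate 1 and CDP4. When each cell name was given equal weight, edgeR called 354 of 1171 rows (30.2%), 351 of them higher in AB. Of the 351 rows, 37.6% had over 90% of their summed AB level in 1 library, and 44 were higher in all 3 AB libraries than in MS replicate 1 and CDP4. On the 364 rows of the pooled comparison that fit called 37.4% of the rows, 36.5% of the rows as higher in AB.

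Several rows carried by AB replicate 3 had low medians from 1 to 5 cells and were uneven later. Rows 911, 3740, 1346, 12775 and 11834 had median levels of 19.6 to 102.5 CPM at every stage from 1 to 5 cells (3 to 16 libraries a stage, all cells together). Single libraries could be high: at the 4-cell stage row 911 reached 2554 CPM and row 1346 reached 2751 CPM in other cells. The 3 AB libraries of that stage held at most 431 CPM of either row. At the 6-cell stage (4 libraries) the medians were 122.6 to 235 CPM. At the 16-cell stage (3 libraries) they were 512.2 to 1106 CPM, at stage E2 (4 libraries) 116.06 to 592 CPM and at stage E4 (14 libraries) 651 to 1674 CPM. At stage E8 (11 libraries) they were 95.9 to 1004.5 CPM, at VE (8) 596 to 3799 CPM, at Comma (11) 92.8 to 2043 CPM and at LE (4) 1102 to 2485 CPM. Row 1374 differed from them, with medians of 345 to 741 CPM already from 1 to 5 cells. The rows were chosen at the 13-cell stage and the libraries here are others, and no test was made.

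AB libraries of other stages did not show 1 direction for the named rows. The 12 higher rows were also higher in AB in 3 of 12 at the 2-cell stage (7 AB against 7 P1), 9 at the 3-cell stage (7 against 9), 6 at the 4-cell stage (3 against 9) and 10 at stage E2 (2 against 2). At stage E4 (3 against 8) it was 1 of 12. Over all 364 rows the share higher in AB at these 5 stages was 46.2%, 44.2%, 45.6%, 66.2% and 28.02%. Where AB or the other cells had 1 library, 8 of the 12 were higher at the 5-cell stage (1 against 6), 8 at the 6-cell stage (1 against 3) and 7 at the 16-cell stage (2 against 1), beside 55.5%, 60.7% and 39.6% of the 364 rows. The 12 lower rows were also lower in AB in 3, 10, 7, 10 and 3 of 12 at the first 5 of these stages. The share of all 364 rows lower in AB there was 53.85%, 55.77%, 54.4%, 33.52% and 71.98%. At the 5-cell, 6-cell and 16-cell stages it was 12, 7 and 5 of 12, beside 44.51%, 39.29% and 60.16% of the 364 rows. Row 16124, the row high in AB replicate 4, was higher in AB at some stages and lower at others. It stood at 1125 ± 365 CPM in AB (SD, n = 3) and 572 ± 260 CPM in other cells (SD, n = 9) at the 4-cell stage, and at 627 ± 681 CPM (n = 3) and 1192 ± 681 CPM (n = 8) at stage E4. In AB against the mean of the other cells it stood at 1643 and 659.9 CPM at the 5-cell stage, at 1645 and 373 CPM at the 6-cell stage and at 257 and 1249.7 CPM at the 16-cell stage. At the 2-cell, 3-cell and E2 stages the AB and other ranges overlapped.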

How the data were processed

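Single blastomeres or small groups of cells were sequenced with CEL-Seq2, per the labels' protocols. The authors deposited raw counts for 16853 rows, with no row identifiers. The submitters' processing notes name CASAVA (1.8), HTSeq (0.5.4p3) and Bowtie2 (2.1.0). No source used here gives their settings, their strand handling or any collapse of molecular identifiers. The number in a sample's description picked its column, and 9 columns were not used because their numbers also match the title of another sample. None of the 9 is of the 13-cell stage. Groups came from the titles.

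Totals of the 13 libraries kept ran from 10941 to 250766 counts. The 7 libraries of the stage under 10000 counts were left out. AB was compared with the other cells by the quasi-likelihood test of edgeR (version 4.0.16, under R 4.3.3, with limma 3.58.1), using TMM, filterByExpr (minimum count 10, minimum total 15), robust estimates and Benjamini-Hochberg adjustment over all rows tested, threshold 0.05. The filter passes rows at about 435 CPM in the median library, and the rows tested held 22.2% to 58.8% of a library's counts. One fit with a group for each cell name gave the contrasts with MS and C. Totals, detected rows and likeness were tested by exact permutation. DESeq2 1.42.0 was an alternative. The edgeR script was checked on simulated data. Values per library are CPM (count over total), and plotted log2 values are of CPM plus 50. The chi-square of replicate pairs, over its degrees of freedom, was at least 5.88, and none was treated as a duplicate.

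Named rows are the 12 higher and the 12 lower rows with the smallest p, detected in over 50% of the libraries of the higher side. Since none was called, no row of most similar pattern was sought. The members and the lists were chosen with earlier results of these data known. The fits within each set, the fits on the same rows and the removal of rows near 1024 were chosen after seeing the data. No label says that the numbers ending the titles pair libraries.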

Additional observations from a re-analysis of the deposited data

Results flagged for a closer look

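In rows that were higher in AB, MS replicate 1 stood apart from the other 9 libraries of other cells. It was at 1283 CPM for row 3740 (the nearest was 315 CPM), at 1676 CPM for row 1374 (845 CPM) and at 1107 CPM for row 7507 (459 CPM). C replicate 1 stood apart for row 7583, at 4130.3 CPM (1927 CPM). These were 4 of 27 groups looked at, and how often chance alone gives such a flag was not tested. The AB effect differed between the 2 sets of libraries in 14.4% of 1171 rows by edgeR's interaction term. The second set holds 1 AB library, AB replicate 3, so the AB effect there has no spread of its own, and the rows below had already been high in it. Among the named rows the first set minus the second gave, in edgeR, -5.06 for row 911 (adjusted p = 0.0165), -6.91 for row 3740 (0.017), -5.32 for row 1374 (0.014), -5.97 for row 1346 (0.013), -7.17 for row 12775 (0.00722) and -6.87 for row 11834 (0.0122), all on the log2 scale.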

How the results depend on the processing

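For AB against the other cells, 0% of rows were called, and 0 to 0.667% when 1 library was left out, the highest without MS replicate 1 (2 of 300 rows, 11033 and 16054, and the same 2 or 0.549% of the 364). The share was 0.824% with DESeq2, 3.28% with no filter, 5.72% with the number ending the title as a replicate block (64 rows higher, 3 lower) and 0 with that block on the same 364 rows. It was 30.2% with equal weight per cell name (37.4% on the same rows), 17% within the second set (35.4% on the same rows) and 0.824% within the first set on the same rows. The block tested 1171 rows in place of 364, and among the libraries kept only the title of P4 replicate 3 ends in a number other than 1. Of the 64 rows called higher with the block, 60 had over 90% of their summed AB level in 1 library, and 55 were highest in AB replicate 2. No row was called in 38 of 48 alternatives, among them all 20 libraries, 20000 counts or more, thinning and the score as covariate. AB against MS gave 0.171% when thinned and 0 in 20 others. AB against C gave 1.28% with DESeq2, 18.6% with all 20 libraries, 0.171% when thinned and 0 in 18 others. Leaving out 1 library, the difference in log10 total ran from 0.688 to 0.881, in detected rows from 6355 to 7603, and in likeness from 0.243 to 0.49. Likeness differed by 0.113 when thinned (exact permutation p = 0.245). Detected rows differed by 592 when thinned and by 5618 with 20000 counts or more (exact permutation adjusted p = 0.0833). Of 1023 values of named rows, 11 in 8 rows reversed. Row 1069 ran from -0.31 without AB replicate 2 to 2.3. Against deep libraries alone, the edgeR folds of rows 16089 and 16606 changed sign (0.01 and 0.06). On the same 364 rows so did 16054 (0.02), 16136 (0.03), 16517 (0.2), 8052 (0.08), 16089 (0.23), 16287 (0.36) and 16606 (0.37). Their adjusted p in that edgeR fit on the same rows was 0.776 to 0.971, so no rise in AB was shown. In CPM, row 16054 stood at 5910, 4052 and 9763 in AB against 9785 in MS replicate 1 and 7518 in CDP4. The cause of these sign changes was not tested. No paired analysis was possible for MS and C by the number ending the title because that fit cannot be estimated. With the 2 sets of libraries as a block edgeR called 0 of 1171 rows for each, with 66 at an unadjusted p under 0.05 for MS and 11.96% for C, and 0 of 514 rows for all other cells. Depth limits the rest: 10 counts in the median library are 435 CPM.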
